A study of Mus musculus with 15 samples.

Results

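The genes of the proteasome and its attached regulators were described in 15 RNA-seq libraries of mouse brain stem. Members were all genes whose mouse symbol is Psm, 1 letter from a to g and a number, which gave 48 of the 57180 genes listed in the count tables. The first experiment held 3 libraries of WT littermates (AMPK+/+) and 3 libraries labelled AMPK-/-, from newborn mice, for which the study's methods give postnatal days 1 to 5 and name the deleted gene as the AMPK catalytic subunit α2. The second held 3 libraries each of WT (LMX1B+/+), heterozygous (LMX1B+/-) and null (LMX1B-/-) embryos taken before birth, at a day not given in the sources used here. The null genotype of Lmx1b is embryonic lethal according to the study. No treatment was given to any group in the labels, the strain is not named, and nothing states whether each library came from a separate animal, so p-values measure the spread between libraries.

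The proteasome is the protease that degrades ubiquitin-tagged proteins in the cytosol and nucleus. Its 20S core is a barrel of stacked rings, with alpha subunits (Psma genes) forming the gate and beta subunits (Psmb genes) forming the inner chamber, where Psmb5, Psmb6 and Psmb7 carry the catalytic sites. The 19S regulatory particle binds the end of the core. Its base holds a ring of ATPases (Psmc genes) that unfold the substrate and larger scaffold and ubiquitin-binding subunits (Psmd genes), and its lid holds the deubiquitinase Psmd14 among other Psmd subunits. Other members act beside the particle: Psme genes encode alternative activators, Psmf1 encodes an inhibitor, Psmg genes encode chaperones of core assembly, and Psmd5, Psmd9 and Psmd10 encode chaperones of base assembly. Neurons depend on the complex for protein turnover at synapses and in axons, and its genes are used in all cell types. In bulk tissue, fewer cells of a type and less RNA per cell cannot be told apart.

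Of the 48 genes, 7 encode constitutive alpha subunits, 7 constitutive beta subunits, 3 the immunoproteasome beta subunits (Psmb8, Psmb9 and Psmb10) and 2 core subunits restricted to other tissues (Psma8 of testis and Psmb11 of thymus). The regulatory particle was represented by 6 ATPases, 3 base subunits without ATPase activity and 8 lid subunits. The rest were 3 chaperones of the particle, 4 activators, 1 inhibitor and 4 chaperones of the core. The core below means the 14 constitutive subunits and the regulatory particle the 17 subunits of base and lid. In both tables, 46 of the 48 genes had enough counts to be tested, and Psma8 and Psmb11 did not.

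The prenatal libraries held between 28833130 and 37441679 counts. In the newborn table, 4 libraries held between 14975095 and 17384171 counts, whereas WT 2 held 291212 and AMPK-/- 3 held 335986. Levels are given as CPM, counts divided by the library total after TMM scaling within a table and set to a total of 1000000. A count of 0 allowed up to 9.96 and 9.04 CPM in these shallow libraries, against at most 0.198 CPM in the other 13; such limits cover counting error only. Skeletal muscle genes summed to 895 CPM in AMPK+/+ 3 and to between 6.03 and 11.1 CPM in the other 5 newborn libraries, over a list of 10 genes. Mitochondrially encoded genes took 20.05% to 21.7% of the counts in the AMPK-/- libraries and 10.4% to 13.9% in their controls. In the prenatal table they took 9.58% to 14.7% in LMX1B+/-, 7.23% to 7.98% in LMX1B-/- and 5.57% to 6.74% in LMX1B+/+. The gene ENSMUSG00000119584, named after its share was seen, had the most counts in every library. It took from 4.56% of the counts (LMX1B+/+ 3) to 22.7% (LMX1B+/- 1). The totals behind RPKM and behind scaling by library size only include it, so its share moves those levels. Lmx1b stood at 1.45, 1.13 and 0.847 CPM in the LMX1B-/- libraries, below all LMX1B+/+ libraries at 22.5, 16.0 and 9.72 CPM. The libraries labelled LMX1B+/- stood at 30.5, 11.9 and 14.2 CPM, overlapped with WT and were not called (log2 fold change 0.23 ± 0.33 SE, edgeR adjusted p = 0.618), so the level of Lmx1b does not set them apart from WT. Prkaa2, which encodes AMPK α2, stood at 25.3, 22.2 and 12.1 CPM in the libraries labelled AMPK-/- and at 21.9, 26.5 and 29.6 CPM in their controls, and was not called (log2 fold change -0.20 ± 0.23 SE, edgeR quasi-likelihood adjusted p = 0.659); which part of the gene the allele removes is not given in the sources used here. AMPK-/- and LMX1B+/- below therefore mean the libraries labelled so. The brain stem markers (7 genes) summed to between 144 and 451 CPM and the neuronal markers (5 genes) to between 2748 and 5136 CPM over the 15 libraries. Single brain stem markers differed, with 2 called higher in AMPK-/-, 3 higher and 1 lower in LMX1B+/-, and 1 lower in LMX1B-/-, each against WT. The shares of all tested genes called are given with each comparison below. Tph2, picked after its values were seen, stood at 133, 3.62 and 69.3 CPM in AMPK-/- and at 2.76, 6.64 and 0.699 CPM in AMPK+/+. Whether the dissected tissue was alike between groups was not tested.

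Per gene length, core and regulatory particle genes had like median levels in the prenatal WT brain stem. The subunits of other tissues lay near 0 in the prenatal libraries. Across the 9 prenatal libraries, the highest mean RPKM (reads scaled by gene length and library depth) belonged to Psma6, an alpha subunit, at 61.9 (range 40.9 to 94.7), followed by the ATPase Psmc1 at 52.3 and the beta subunit Psmb2 at 49.5. In the LMX1B+/+ libraries, the median RPKM was 21.3 for the core and 23.3 for the regulatory particle. The subunits of the core are present in equal number in each barrel, and the WT mean RPKM of Psma6 (45.9 ± 5.42 SD, n = 3) was 6.21 times that of Psmb3 (7.39 ± 1.46), the lowest core member. Such ratios depend on the gene lengths used, here 1234 bases for Psma6 and 2300 for Psmb3. Without division by length, their WT means were 53.1 and 15.8 CPM. Within the particle, Psmc1 (43.5 ± 8.58 RPKM) stood 6.39 times above Psmd11 (6.80 ± 1.16 RPKM). The chaperones of core assembly lay lower, with a median of 6.42 RPKM.

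The subunits of special tissues were low. Psmb11 reached at most 0.0449 RPKM in the prenatal table and was at 0 counts in LMX1B+/+ 2, and Psma8 reached at most 0.139 RPKM. In the newborn table, Psma8 was at 0 counts in AMPK-/- 2, AMPK-/- 3 and AMPK+/+ 2, and Psmb11 in AMPK-/- 3 and AMPK+/+ 2. The immunoproteasome subunit Psmb9 had a mean of 0.0918 RPKM over the 9 prenatal libraries, whereas Psmb10 had 7.26 ± 0.892 RPKM in LMX1B+/+. Psma8 and Psmb11 lay between 0 and 0.407 CPM over the 15 libraries.

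The largest difference of the proteasome genes was found in the libraries labelled LMX1B+/-, where nearly the whole set was higher than in WT. Of the 46 tested members, 37 rose and 0 fell, at adjusted p under 0.05 in edgeR's quasi-likelihood test, while 19.4% of all tested genes rose and 17.3% fell in the same fit. In 37 members all LMX1B+/- libraries lay above all LMX1B+/+ libraries, against 23.4% of all genes. The median log2 fold change of the members was 0.77, against -0.03 over all genes tested. Of the 7977 genes called, 4225 were higher; scaled by library size only, 2058 of 7873 were, the median of all genes moved to -0.27, and 26 members rose with a median of 0.51. With the deposited RPKM in limma, 2176 of 7273 called genes were higher and 28 members rose. All 14 core genes rose, with a median log2 fold change of 0.98 and a range of 0.75 to 1.15. Of the regulatory particle, 14 of 17 genes rose, with a median of 0.72 and a range of -0.11 to 0.95.

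Summed over the 14 core genes, the LMX1B+/- libraries held 1309, 1232 and 1561 CPM and the LMX1B+/+ libraries 691, 662 and 714 CPM. The groups did not overlap, and the group means (1367 ± 172 and 689 ± 25.8 CPM, SD, n = 3) stood in a ratio of 1.98. The 17 genes of the particle summed to 1818, 1650.2 and 1952 CPM in LMX1B+/- and to 1169, 1223 and 1271 CPM in LMX1B+/+, a ratio of means of 1.48. The sum of the core divided by the sum of the particle was therefore 0.720, 0.747 and 0.800 in the heterozygous libraries and 0.591, 0.542 and 0.562 in the WT libraries, with no overlap.

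**Figure D1:**
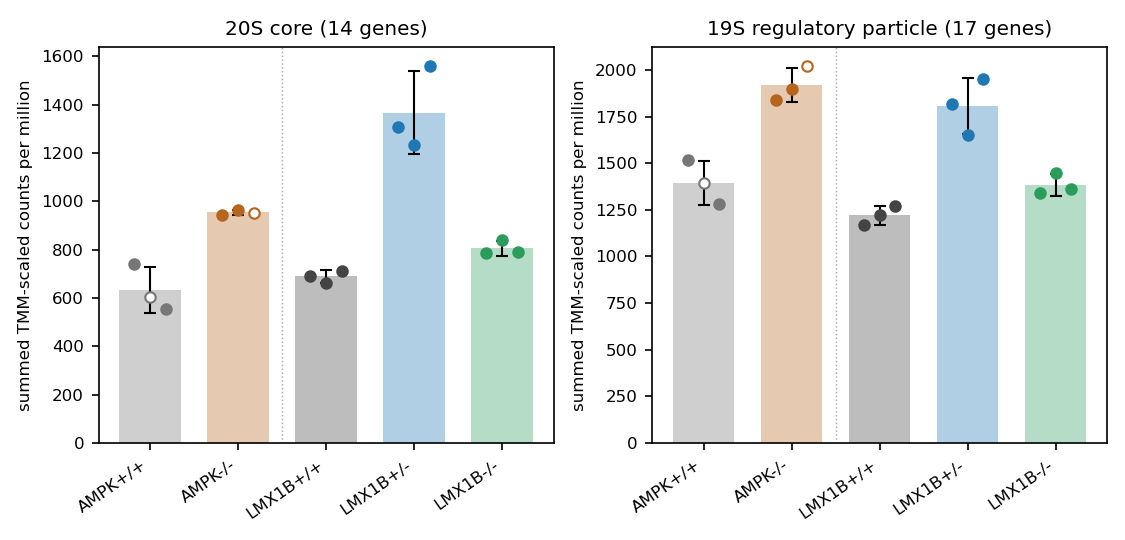
Summed TMM-scaled CPM of the 14 core genes (left) and the 17 regulatory particle genes (right) for each genotype; bars are means, error bars SD (n = 3), points single libraries, open points the 2 shallow libraries, and the dotted line separates the newborn from the prenatal table. The LMX1B+/- bar of the core stands at 1367 CPM, against 689 CPM in LMX1B+/+ and 805 CPM in LMX1B-/-.

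The alpha ring rose as a whole (7 of 7 genes, median log2 fold change 0.97). Psma7 (ENSMUSG00000027566) stood at 121, 116 and 139.5 CPM in the LMX1B+/- libraries and at 63.1, 55.2 and 62.9 CPM in the LMX1B+/+ libraries (log2 difference 1.06 ± 0.10 SE, adjusted p = 7.13e-06). Every heterozygous library thus lay far above every WT library. Psma6 had 106, 105 and 131 CPM, with 52.3, 55.6 and 51.4 CPM in WT (log2 difference 1.10 ± 0.10, adjusted p = 8.15e-06). Psma4 had 92.1, 93.7 and 123 CPM against 48.0, 44.0 and 50.2 CPM (1.12 ± 0.12, adjusted p = 1.72e-05). LMX1B+/- 3 was the highest library for each of these alpha subunits, and no library of one genotype reached the range of the other. Psma5 (0.97 ± 0.11) and Psma1 (0.93 ± 0.10) rose by like amounts on the log2 scale.

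The beta ring rose as well (7 of 7 genes, median 0.99). Psmb1, a structural beta subunit, had 147, 137 and 179 CPM in LMX1B+/- and 69.7, 76.0 and 74.5 CPM in LMX1B+/+ (log2 fold change 1.07 ± 0.11 SE, adjusted p = 1.33e-05). Psmb6, which carries the caspase-like site, had 138, 120.2 and 155 CPM against 69.6, 63.2 and 68.6 CPM (1.04 ± 0.11, adjusted p = 1.435e-05). The groups did not overlap for either gene. Psmb7, with the trypsin-like site, showed the largest log2 fold change of the core at 1.15 ± 0.13. Psmb4 (0.94 ± 0.10) and Psmb3 (0.99 ± 0.11) also rose.

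In the regulatory particle, the size of the change varied more between members. Psmd14, the deubiquitinase of the lid, had 65.2, 58.7 and 65.6 CPM in LMX1B+/- and 33.7, 32.8 and 34.7 CPM in LMX1B+/+ (log2 fold change 0.90 ± 0.09 SE, adjusted p = 9.91e-06), without overlap. The lid subunit Psmd13 rose by 0.83 ± 0.09 on the log2 scale. All 6 ATPases rose, over a range of 0.25 to 0.95 and with a median of 0.77. The members of the particle that were not called were Psmd2, the large base scaffold (0.20 ± 0.10, adjusted p = 0.14), and the lid subunits Psmd3 (-0.11 ± 0.13, adjusted p = 0.545) and Psmd11 (-0.08 ± 0.10, adjusted p = 0.555), all from edgeR and singled out after their values were seen. Psmd11 showed 38.3, 42.7 and 33.8 CPM in LMX1B+/- and 39.8, 39.8 and 41.9 CPM in LMX1B+/+, so that the groups overlapped.

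Outside core and particle, the 4 chaperones of core assembly rose, with log2 fold changes of 0.48 to 1.05, and 2 of the 3 chaperones of base assembly did. Of the activators, the interferon-inducible pair Psme1 and Psme2 rose (0.33 ± 0.11 and 0.79 ± 0.11 SE), whereas Psme3 (0.02 ± 0.08, adjusted p = 0.847) and Psme4 (0.08 ± 0.09, adjusted p = 0.51) did not pass edgeR's test. The inhibitor Psmf1 stood at -0.08 ± 0.09 (adjusted p = 0.528). These activators and the inhibitor were singled out after their values were seen. Of the immunoproteasome, Psmb10 rose (0.55 ± 0.15, adjusted p = 0.0104), with 17.3, 13.7 and 20.02 CPM against 10.998, 13.2 and 10.7 CPM. Psmb8 (0.651, 0.516 and 0.689 CPM against 0.773, 0.277 and 0.540 CPM) and Psmb9 (0.253, 0.290 and 0.240 CPM against 0.492, 0.173 and 0.383 CPM) overlapped between genotypes and were not called. Among 10 interferon response genes, 1 rose and 4 fell in the same comparison, and of 5 microglial and immune genes 1 fell. Of all tested genes, 19.4% rose and 17.3% fell.

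**Figure D2:**
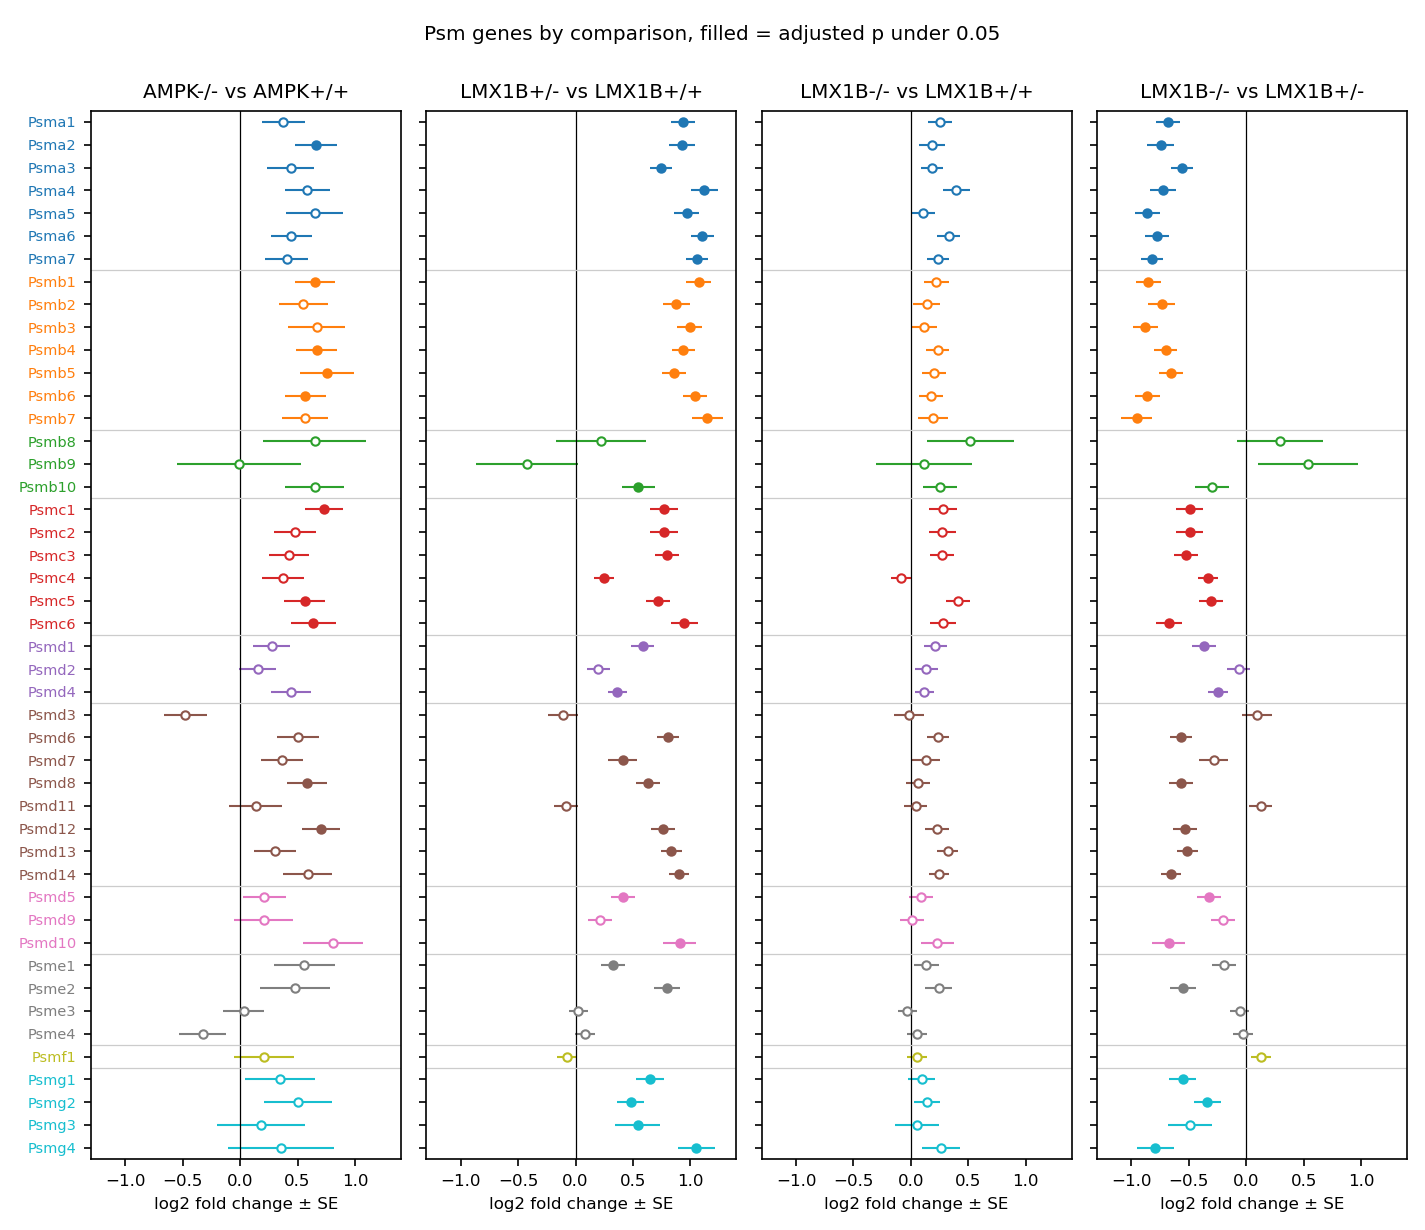
Log2 fold change ± SE of the 46 tested members (rows, coloured and ordered by class) in the 4 comparisons (panels); filled points have an adjusted p under 0.05. In LMX1B+/- against LMX1B+/+ all 14 core genes are filled and lie between 0.75 and 1.15, while in LMX1B-/- against LMX1B+/+ no point is filled.

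Other measures of the LMX1B+/- group are given beside the 19.4% of all tested genes that rose and the 17.3% that fell. All 5 erythroid genes tested (Hba-a1, Hba-a2, Hbb-bs, Hbb-bt and Alas2) rose, with a median log2 fold change of 2.45; their sum was 3542 to 7500.2 CPM in LMX1B+/-, 508 to 1246 CPM in LMX1B+/+ and 1059 to 2376 CPM in LMX1B-/-. Of 9 tested skeletal muscle genes 3 rose, though their summed level was low in every prenatal library (15.6 to 25.7 CPM), and 1 of 5 cerebellar granule genes fell. Among the 7 brain stem markers 3 rose and 1 fell, and 1 of 5 neuronal markers rose. The counts of cerebellar granule and neuronal genes were near the shares of all genes. Of 5 choroid plexus genes 0 were called, with a median log2 fold change of 1.76. Their sum differed widely between libraries, at 68.0, 1629 and 932 CPM in LMX1B+/-, 1281, 720.1 and 99.4 CPM in LMX1B-/- and 213 to 353 CPM in LMX1B+/+. The mitochondrial share was also highest in LMX1B+/-, as given above. The part of these differences in the change of the proteasome genes was not tested.

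Gene length moved with the fold changes too. Over all tested genes, the median log2 fold change fell from 0.72 in the tenth with the shortest genes (median 470.0 bases) to -0.33 in the tenth with the longest (median 11321 bases). The tested members had a median length of 2814 bases, against 3432 bases for all genes, and in the tenth of genes with a median length of 2448 bases the median log2 fold change was 0.03. With the length trend removed from each library, 32 of 46 members rose and 0 fell, and their median was 0.62. That fit called 28.9% of all genes in either direction.

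**Figure D3:**
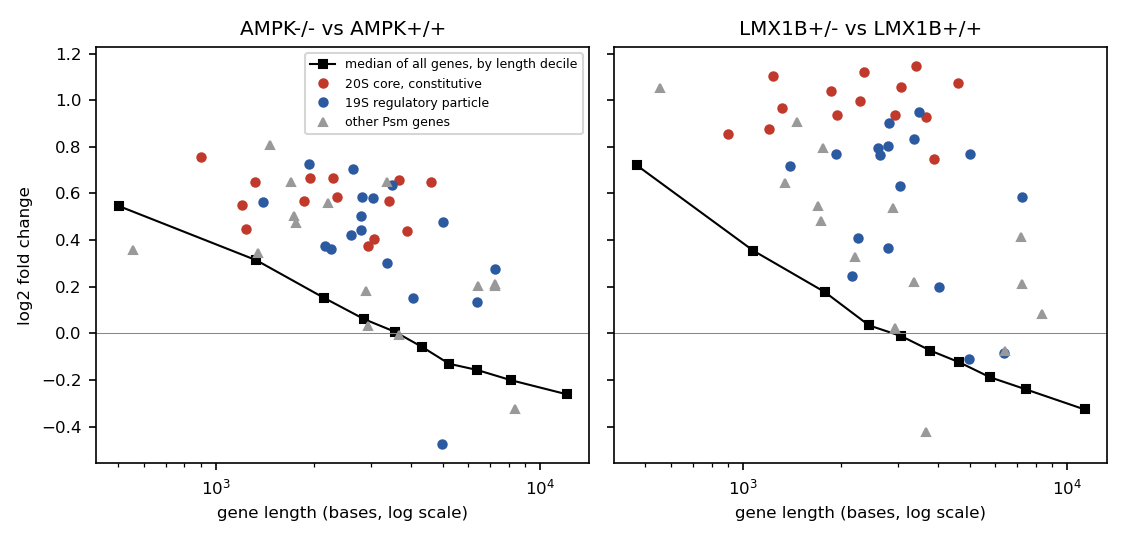
Log2 fold change against gene length (log scale) in AMPK-/- against AMPK+/+ (left) and LMX1B+/- against LMX1B+/+ (right); black squares join the medians of all tested genes by equal groups of length, red points are core genes, blue points regulatory particle genes and grey triangles the other members. In LMX1B+/- the 14 core genes lie between 0.75 and 1.15, above the black line at their lengths.

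In LMX1B-/- embryos, no proteasome gene was called against WT, and most values lay slightly above it. Of 46 members, 0 rose and 0 fell at adjusted p under 0.05 in edgeR, where 0% of all genes rose and 0.0184% fell. DESeq2 and limma called 0 members as well, with 0.161% and 0.0138% of all genes called. At an unadjusted p under 0.05, 14 members were higher, against 5.55% of all genes. In 24 members all LMX1B-/- libraries lay above all LMX1B+/+ libraries, against 11.9% of all genes. The median log2 fold change was 0.19, against 0.01 over all genes, with 0.20 for the core and 0.23 for the particle.

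The smallest p belonged to Psmc5, an ATPase of the base, with 55.0, 67.3 and 57.8 CPM in LMX1B-/- and 44.8, 42.9 and 47.9 CPM in LMX1B+/+ (log2 fold change 0.41 ± 0.10 SE, edgeR adjusted p = 0.502). Psmd13 followed with 66.3, 65.7 and 62.3 CPM against 52.2, 47.8 and 55.5 CPM (0.32 ± 0.09, edgeR adjusted p = 0.532). Neither gene overlapped between the genotypes. Psma4 (0.40 ± 0.12) and Psma6 (0.33 ± 0.10) came next, both with an edgeR adjusted p of 0.532. Summed over the core, LMX1B-/- held 786, 841 and 789 CPM, above the 3 WT libraries (662 to 714 CPM) and below the 3 heterozygous libraries (1232 to 1561 CPM). The ratio of core to particle was 0.587, 0.581 and 0.580, within the WT range of 0.542 to 0.591.

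The test between the 2 mutant genotypes used the same heterozygous and null libraries as the comparisons with WT, and its values are therefore not independent of them. Of 46 members, 33 were lower in LMX1B-/- than in LMX1B+/- and 0 were higher, against 14% of all genes lower and 11.5% higher, and in 33 all null libraries lay below all heterozygous ones, against 21.4% of all genes. In 2 members, Psmf1 and Psmb9, named after their values were seen, all null libraries lay above, against 21% of all genes, and neither was called. Of the 5544 genes called, 2500 were higher; scaled by library size only, 3737 of 5034 were, the median of all genes moved from 0.02 to 0.22, and 16 members were lower. With the deposited RPKM in limma, 2944 of 4334 called genes were higher and 15 members were lower. The 14 core genes were all lower, with log2 differences of -0.95 to -0.56, as were 13 of the 17 particle genes. Psma7 had 71.4, 71.8 and 70.8 CPM in LMX1B-/- (log2 difference from LMX1B+/- -0.82 ± 0.10 SE, edgeR adjusted p = 8.99e-05). Psma5 had 20.7, 24.4 and 22.4 CPM in LMX1B-/- against 41.0, 36.9 and 44.6 CPM in LMX1B+/- (-0.86 ± 0.11, edgeR adjusted p = 0.000116). Psmb6 had 70.8, 80.6 and 76.6 CPM in LMX1B-/- (-0.86 ± 0.11, edgeR adjusted p = 0.000119). In none of these genes did the null and heterozygous libraries overlap.

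Psmb3, the core gene with the lowest level per length, had 17.3, 17.95 and 16.3 CPM in LMX1B-/- against 30.7, 28.9 and 35.03 CPM in LMX1B+/- (-0.88 ± 0.11 SE). Psmb1 had 85.1, 90.6 and 80.9 CPM in LMX1B-/- (-0.85 ± 0.11). Psmd14 had 39.9, 41.4 and 38.9 CPM in LMX1B-/- (-0.66 ± 0.09). No null library of these genes reached the lowest heterozygous one. Psma6 (-0.78 ± 0.10), Psmb7 (-0.95 ± 0.13), Psmb4 (-0.70 ± 0.10), Psma1 (-0.68 ± 0.10), Psma2 (-0.74 ± 0.12) and Psmb5 (-0.66 ± 0.10) were lower as well. All 33 of these genes were among the 37 that rose in LMX1B+/- against WT. In LMX1B-/- against LMX1B+/-, 14% of all genes were lower and 11.5% higher. There, 5 of 5 erythroid and 4 of 9 skeletal muscle genes were lower. Among 10 interferon response genes 4 were higher, as were 2 of 5 microglial and immune genes. Of the 7 brain stem markers 1 was higher and 1 lower. The part of all these genes in the change of the proteasome genes was not tested.

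**Figure D4:**
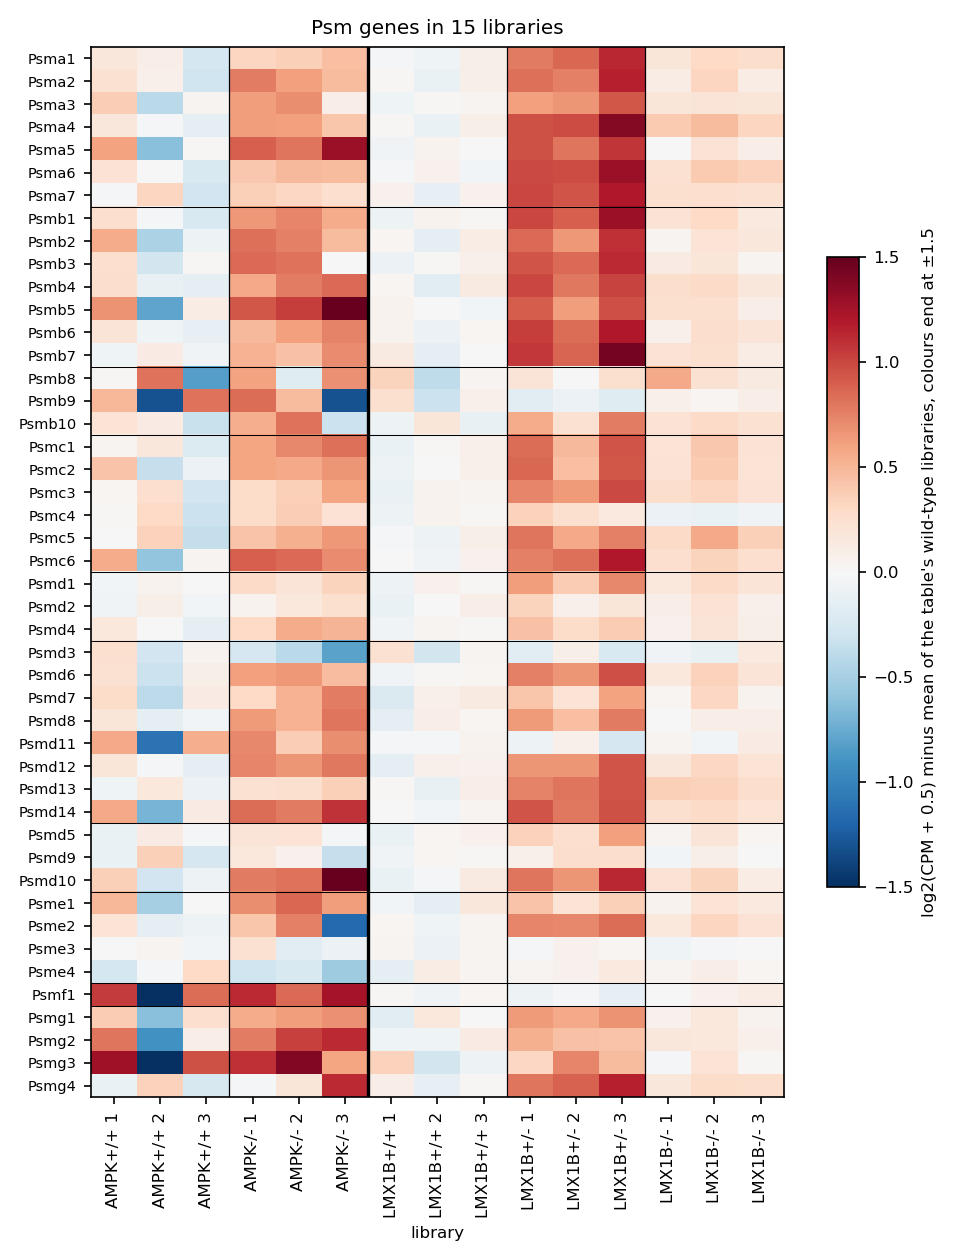
Log2(CPM + 0.5) of the 46 tested members (rows, ordered by class) in each of the 15 libraries (columns), minus the mean of the WT libraries of the same table; red is higher, blue lower, and the colours end at ±1.5. The LMX1B+/- columns are red over nearly all core rows, the LMX1B-/- columns are pale, and the shallow libraries AMPK+/+ 2 and AMPK-/- 3 are uneven from gene to gene.

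In the newborn brain stem, the libraries labelled AMPK-/- showed higher levels of many proteasome genes than WT littermates, though Prkaa2 was not called lower in them and few of the calls held under other settings. Of 46 members, 10 rose and 0 fell at adjusted p under 0.05 in edgeR, against 3.77% of all genes that rose and 5.17% that fell. In 26 members all AMPK-/- libraries lay above all AMPK+/+ libraries, against 13.9% of all genes. The median log2 fold change was 0.48, against -0.01 over all genes. Of the 1555 genes called, 655 were higher; scaled by library size only, 280 of 1931 were, the median of all genes moved to -0.18, and 3 members were called, with Psmc1 and Psmd12 higher and Psmd3 lower. The members' median was 0.58 in the core, of which 5 of 14 genes rose, and 0.44 in the particle, of which 5 of 17 rose. Summed over the core, the AMPK-/- libraries held 945, 966 and 952 CPM and the AMPK+/+ libraries 741, 604 and 555 CPM, a ratio of means of 1.51, and over the particle the ratio was 1.38.

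Psmc1, an ATPase of the base, had the smallest p, with 205, 224 and 241 CPM in AMPK-/- and 140.0, 153 and 117 CPM in AMPK+/+ (log2 fold change 0.73 ± 0.17 SE, adjusted p = 0.00909). Psmd12, a lid subunit, had 135, 129 and 142 CPM against 92.1, 79.6 and 73.4 CPM (0.70 ± 0.17, adjusted p = 0.0124). The genotypes did not overlap for either gene. Psmb4, a beta subunit, had 101, 117 and 124 CPM against 82.3, 63.1 and 61.5 CPM (0.67 ± 0.18, adjusted p = 0.0222). Psmb1 had 132, 140.2 and 124 CPM against 99.7, 83.0 and 71.4 CPM (0.65 ± 0.18, adjusted p = 0.0223). These beta subunits did not overlap either. Psma2, an alpha subunit, had 118, 106 and 96.4 CPM against 80.7, 73.0 and 55.9 CPM (0.66 ± 0.18, adjusted p = 0.0262). Psmd8, of the lid, had 86.5, 79.6 and 96.4 CPM against 62.8, 49.8 and 53.8 CPM (0.58 ± 0.18, adjusted p = 0.0409). The other genes that rose were the ATPases Psmc6 (0.64 ± 0.20) and Psmc5 (0.56 ± 0.18) and the catalytic beta subunits Psmb5 (0.76 ± 0.23) and Psmb6 (0.57 ± 0.18).

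The members that were not called included both directions. The lid subunit Psmd3, singled out after its value was seen, had the lowest log2 fold change, with 57.8, 51.9 and 39.2 CPM in AMPK-/- and 81.4, 56.4 and 71.5 CPM in AMPK+/+ (-0.48 ± 0.19 SE, edgeR adjusted p = 0.11), with overlap between the genotypes. Psmd10, a chaperone of base assembly also singled out after its value was seen, had the largest value but missed the threshold (21.4, 22.0 and 39.2 CPM against 15.9, 9.96 and 11.6 CPM, 0.81 ± 0.26, edgeR adjusted p = 0.0539). Its WT 2 value is at the limit that a count of 0 allows there. Psmb8 (5.67, 3.101 and 6.03 CPM against 3.61, 6.64 and 1.80 CPM), Psmb9 (1.71, 1.23 and 0 CPM against 1.25, 0 and 1.69 CPM) and Psmb10 (22.3, 27.1 and 12.1 CPM against 17.6, 16.6 and 11.9 CPM) of the immunoproteasome overlapped between genotypes. In the shallow libraries AMPK-/- 3 and AMPK+/+ 2 these genes had 0 to 5 counts each. The overlap of Psmb10 rests on AMPK-/- 3, with 4 counts, and its log2 fold change was 0.65 ± 0.26 SE (edgeR adjusted p = 0.117). None of the 4 activators, the 7 chaperones and Psmf1 passed the test.

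The number of calls in the newborn table changed with every library left out. Without AMPK+/+ 2 and AMPK-/- 3, the median log2 fold change of the members was 0.47, and edgeR called 0 of 46 members and 6 of all genes. At an unadjusted p under 0.05 that fit had 21 members, against 20.2% of all genes. Without AMPK+/+ 3, the library with skeletal muscle genes, 2 members were called and the median was 0.35, and without AMPK+/+ 1 the count was 21. It was 3 without AMPK+/+ 2, 4 without AMPK-/- 1, 4 without AMPK-/- 2 and 2 without AMPK-/- 3. The share of all genes called in either direction moved as well, from 8.94% with all libraries. It was 16.4%, 5.8% and 3.06% without AMPK+/+ 1, 2 and 3, and 5.15%, 8.01% and 3.31% without AMPK-/- 1, 2 and 3. Psmc1 and Psmd12 stayed called whichever of the 6 libraries was left out. DESeq2 called 4 members (Psmc1, Psmd12, Psmb1 and Psmb4) and 3.83% of all genes. With limma on the deposited RPKM, 0 members and 0 of all genes were called. There, 14 members had an unadjusted p under 0.05, and the share of all genes at that p was not counted. In the edgeR fit with all libraries, 3.77% of all genes were higher in AMPK-/- and 5.17% lower. The 5 tested skeletal muscle genes were all lower in AMPK-/-, and 2 of 3 tested choroid plexus genes, 2 of 7 brain stem markers, 3 of 5 neuronal genes, 2 of 5 erythroid genes and 2 of 10 interferon response genes were higher, while 1 of 4 cerebellar granule genes was lower and 0 of 5 microglial and immune genes were called. Choroid plexus genes summed to 31.1 to 127 CPM in AMPK-/- and 4.01 to 11.4 CPM in AMPK+/+. The part of these differences in the change of the proteasome genes was not tested. As in the prenatal table, the median log2 fold change over all genes fell with length, from 0.55 in the tenth with the shortest genes to -0.26 in the tenth with the longest. Without that trend 4 members rose (Psmb1, Psma2, Psmd12 and Psmc6), and 5.18% of all genes were called.

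All 10 genes that rose in AMPK-/- were among the 37 that rose in LMX1B+/-. Since 37 of 46 members rose there, most of any 10 members would be among them. Over all genes, 3.77% rose in AMPK-/- and 19.4% in LMX1B+/-, and how many rose in both was not counted. The experiments share no library, but in both the fold changes over all genes fell with gene length and the mitochondrial share was above WT. The share of members called was 10 of 46 in the one and 37 of 46 in the other. Promoters of the members were searched for 3 motifs, none of which contains another: TGACNNNGC, the core of the antioxidant response element bound by the proteasome gene regulators NFE2L1 and NFE2L2; CCAAT, bound by NF-Y; and TAATTA, a homeodomain core of the kind LMX1B binds. RefSeq windows of 300 bases (250 before to 50 after the start, build GRCm38.p6, both strands searched) were found for 40 of the 48 members. TGACNNNGC was present in 6 of 40 members (15%) and 14% of all genes with a window, CCAAT in 14 (35%) and 41.1%, and TAATTA in 0 and 6.12%. The shares of the members were thus close to or below those of all genes. The 4 members that held TGACNNNGC and rose in both experiments are shown, from 5′ to 3′ of the gene's strand, with the match in capitals; in Psmc6 and Psmd12 the match is on the opposite strand.
Psmb5 (chr14:54617946-54618245, minus strand): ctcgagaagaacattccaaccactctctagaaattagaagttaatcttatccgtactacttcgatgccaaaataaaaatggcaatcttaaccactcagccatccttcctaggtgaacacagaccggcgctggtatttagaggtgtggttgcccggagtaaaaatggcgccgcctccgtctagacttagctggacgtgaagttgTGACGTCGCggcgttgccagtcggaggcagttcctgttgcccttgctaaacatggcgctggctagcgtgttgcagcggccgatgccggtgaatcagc
Psmb6 (chr11:70525107-70525406, plus strand): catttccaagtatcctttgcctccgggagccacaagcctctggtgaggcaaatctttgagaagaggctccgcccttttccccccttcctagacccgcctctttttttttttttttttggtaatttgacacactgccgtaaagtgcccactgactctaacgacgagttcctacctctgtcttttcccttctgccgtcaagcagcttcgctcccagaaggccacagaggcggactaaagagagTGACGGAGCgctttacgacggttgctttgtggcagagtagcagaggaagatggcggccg
Psmc6 (chr14:45329574-45329873, plus strand): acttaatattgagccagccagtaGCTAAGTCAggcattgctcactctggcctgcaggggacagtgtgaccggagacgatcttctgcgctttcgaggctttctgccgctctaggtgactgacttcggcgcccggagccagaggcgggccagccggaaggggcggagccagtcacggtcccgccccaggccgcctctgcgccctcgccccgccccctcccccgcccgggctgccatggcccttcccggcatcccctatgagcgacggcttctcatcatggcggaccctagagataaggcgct
Psmd12 (chr11:107479278-107479577, plus strand): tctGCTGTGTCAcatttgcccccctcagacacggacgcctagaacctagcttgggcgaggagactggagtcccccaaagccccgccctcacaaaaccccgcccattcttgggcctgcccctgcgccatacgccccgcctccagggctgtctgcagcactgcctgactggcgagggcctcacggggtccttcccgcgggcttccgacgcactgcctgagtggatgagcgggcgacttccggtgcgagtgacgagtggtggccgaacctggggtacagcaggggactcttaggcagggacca
The match begins 47 bases before the annotated start in Psmb5 and 9 bases before it in Psmb6, and 227 and 247 bases before it in Psmc6 and Psmd12. A match describes the letters of the window, not a bound site.

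Of genes that work with the proteasome, the share called was near that of all genes in LMX1B+/-. Of a list of 28, 27 were matched in the tables: other subunits and assembly factors, deubiquitinases and a ligase at the proteasome, shuttle factors, ubiquitin and its activating enzymes, and the transcription factors Nfe2l1 and Nfe2l2. In LMX1B+/-, 6 of 27 rose and 5 fell, against 19.4% and 17.3% of all genes, with a median log2 fold change of -0.01. Those that rose were Rps27a, a ubiquitin fusion gene (1.51 ± 0.10 SE), Sem1, a small lid subunit (1.17 ± 0.12), Pomp, the core maturation protein (1.07 ± 0.11), Uchl5, a deubiquitinase of the particle (0.80 ± 0.13), Ubb, a polyubiquitin gene (0.59 ± 0.11), and Txnl1, a particle-bound thioredoxin (0.55 ± 0.10). Those that fell, named after their values were seen, were the shuttle factors Ubqln2 (-0.51 ± 0.11) and Ubqln4 (-0.52 ± 0.11), the VCP cofactor Nploc4 (-0.35 ± 0.09), the protease Ddi2 (-0.37 ± 0.12) and the transcription factor Nfe2l1 (-0.34 ± 0.10). Pomp had 65.8, 70.4 and 88.0 CPM in LMX1B+/- and 35.3, 33.6 and 38.0 CPM in LMX1B+/+, whereas Nfe2l1 had 102, 116 and 108 CPM against 154, 125 and 132 CPM. Neither gene overlapped between the genotypes.

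In LMX1B-/- against LMX1B+/+, 0 of the 27 were called by edgeR, and in LMX1B-/- against LMX1B+/-, which shares libraries with both, 6 were lower and 4 higher, against 14% and 11.5% of all genes. In AMPK-/-, against 3.77% of all genes higher and 5.17% lower, 3 of 26 tested genes rose, namely Uchl5 (0.82 ± 0.19), Sem1 (0.77 ± 0.22) and Ubb (0.54 ± 0.16), and 1 fell, Ubqln2 (-0.57 ± 0.17).

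The WT libraries of the 2 experiments were set side by side without a test, since age, experiment and sequencing cannot be told apart between them. The mean level in newborn AMPK+/+ relative to prenatal LMX1B+/+ had a median ratio of 0.860 over the core and 0.933 over the particle, and of 1.03 and 1.12 when all 15 libraries were scaled together, so that the direction of the medians depends on the scaling. Some members stood apart under either scaling. Psmc5 had 183, 232 and 142 CPM in newborn WT and 44.8, 42.9 and 47.9 CPM in prenatal WT, a ratio of 4.11 (4.95 with joint scaling). Psmb8, the inducible counterpart of Psmb5, had a ratio of 7.58 over all WT libraries and 5.11 without the shallow one, whose 6.64 CPM lies under its limit of 9.96 CPM. Psmc1 had a ratio of 1.75. Psme1 lay lowest, with 13.7, 6.64 and 9.66 CPM in newborn WT and 31.9, 29.8 and 36.9 CPM in prenatal WT, with a ratio of 0.304, 0.366 with joint scaling and 0.356 without the shallow library. Psma3 had a ratio of 0.511, and 0.580 without that library. Both genes were picked after their values were seen. Psmc5 and Psme1 did not overlap between the experiments.

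**Figure D5:**
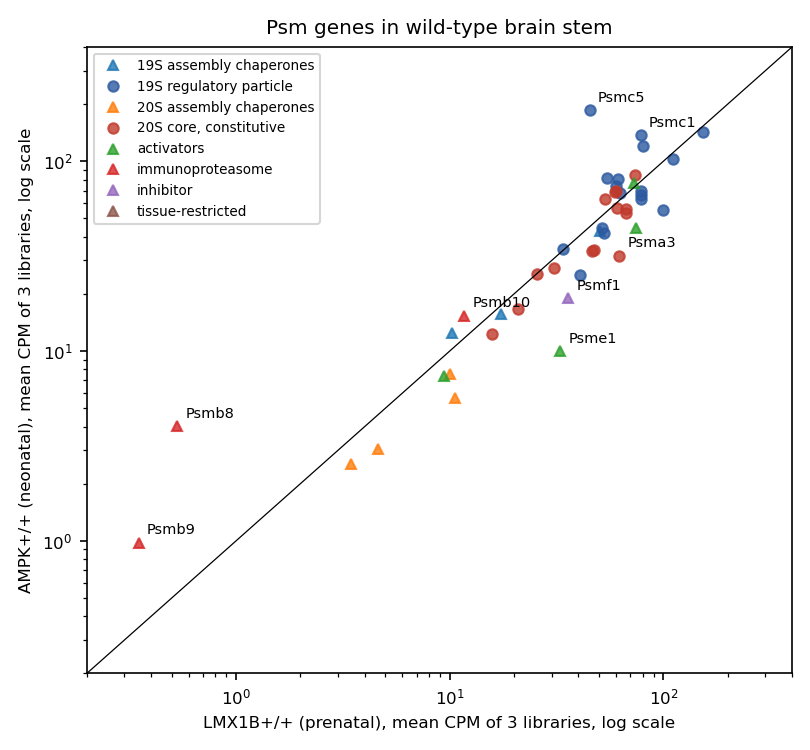
Mean CPM of 3 newborn AMPK+/+ libraries (y axis, log scale) against mean CPM of 3 prenatal LMX1B+/+ libraries (x axis, log scale) for each member except Psma8 and Psmb11, which lie below the axes; red circles are core genes, blue circles regulatory particle genes, triangles the other classes, and the line marks equal values. Psmb8 and Psmc5 lie above the line, at ratios of 7.58 and 4.11, and Psme1 below it, at 0.304.

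In the newborn table the ATPases Psmc5 and Psmc1 had the highest levels per length. Over the 6 libraries, the mean RPKM was 160.4 for Psmc5 (range 113 to 203) and 92.1 for Psmc1, followed by Psma6 at 60.1, and the lowest were Psmb9 (0.269), Psma8 (0.0609) and Psmb11 (0.0179). In AMPK+/+, Psmc5 stood 33.6 times above Psmd11, the lowest particle gene by length-scaled level, and Psma6 stood 9.58 times above Psmb3. Of named copies, Psme2b, a near copy of Psme2, held 4646 counts over all libraries, and the 4 listed pseudogenes of Psmb5, Psmb6 and Psmb7 held 1 to 75 counts each. How reads with several matches were counted is not given in the sources used here, so the value of Psme2 is uncertain.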

How the data were processed

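Brain stem polyA RNA of newborn and prenatal mice was sequenced in 15 libraries. The authors aligned reads with HISAT2 to GRCm39, according to the submitters' processing notes, and deposited whole-number counts per gene for each experiment in 1 table. The authors also deposited RPKM values, which divide counts by gene length and depth. Counting by strand and the treatment of reads with several matches are not given in the sources used here. Ensembl identifiers were paired with mouse symbols (51884 of 57180 matched) and the members taken by symbol; the members and lists were chosen with earlier results of these data known.

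Counts were tested in R 4.3.3 with edgeR 4.0.16 (filterByExpr, TMM, quasi-likelihood F-test, Benjamini-Hochberg adjusted p under 0.05, SE from the F statistic), separately for the 6 newborn libraries (17397 genes) and the 9 prenatal libraries (21729 genes), without a term for the replicate number. The scripts were tested on simulated data. Levels are CPM scaled by TMM within a table, and gene length was recovered from counts and RPKM. Alternatives were DESeq2 1.42.0, limma 3.58.1 on log2(RPKM + 1), other scalings and filters (any count, or at least 10 counts in every library), a replicate block, removal of the length trend by lowess (span 0.3), and fits without single or shallow libraries (those under 1000000 counts). Named genes were, in each comparison, the called members in order of p, up to 12, the first 6 with every library; where fewer than 4 were called, the 4 with the smallest p; the 3 highest and lowest by mean RPKM; the immunoproteasome and tissue-restricted subunits; and up to 6 called genes of the pathway list. Genes outside it are marked as chosen after their values were seen, or stand for a count of 5 or fewer. Promoter windows came from RefSeq (GRCm38.p6), and figures were drawn with matplotlib 3.10.9 in Python 3.11.15.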

Additional observations from a re-analysis of the deposited data

How the results depend on the processing

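The 2 shallow newborn libraries limit the depth of the AMPK comparison. In AMPK-/- against AMPK+/+, where 10 members were called with a median log2 fold change of 0.48, DESeq2 called 4, limma on log2(RPKM + 1) 0 (median 0.3679), library size only 3 (median 0.3089), removal of the length trend 4 (median 0.3869) and the fit without libraries under 1000000 counts 0. Of all genes, these fits called 3.83%, 0%, 11.1%, 5.18% and 0.0332% in that order, against 8.94% in the main fit. The median of all genes was -0.08 with limma, -0.18 with library size only and 0.03 without the length trend, against -0.01. Leaving out 1 library gave 2 to 21 calls and medians of 0.3467 to 0.6243, with 3.06% to 16.4% of all genes called. In LMX1B+/- against LMX1B+/+ the median of 0.77 moved to 0.4874 with limma, 0.5113 with library size only and 0.6164 without the length trend, and to between 0.6776 and 0.835 without 1 library, with 33 to 36 calls. The fits without 1 library called 26.5% to 37.2% of all genes. The median of all genes was -0.11 with limma, -0.27 with library size only and -0.02 without the length trend, against -0.03 in the main fit. In LMX1B-/- against LMX1B+/- the 33 calls became 15 with limma (median -0.3072) and 16 with library size only (median -0.3259), and leaving out 1 library gave 27 to 35 calls and medians of -0.6409 to -0.4579. Of all genes, limma called 19.9%, library size only 23.2% and the fits without 1 library 15.7% to 26.8%, against 25.5% in the main fit. The median of all genes was 0.10 with limma and 0.22 with library size only, against 0.02 in the main fit. In LMX1B-/- against LMX1B+/+ every alternative called 0 members, with medians of 0.15 to 0.22, and 0.0133% to 0.803% of all genes. The median ratio of newborn to prenatal WT levels over core and particle was 0.924, and 1.11 with all 15 libraries scaled together. The cause of these changes was not tested. Correlations of same-numbered deviations ran from -0.121 to 0.0476 and from -0.177 to 0.148, and of differently numbered ones from -0.0962 to 0.123 and from -0.116 to 0.237. With 3 libraries per group, and shallow ones in the newborn table, these values cannot exclude that replicate numbers pair the libraries. With a replicate block 8 members were called in AMPK-/- (median 0.41), 35 in LMX1B+/- (0.76), 0 in LMX1B-/- against LMX1B+/+ (0.19) and 29 in LMX1B-/- against LMX1B+/- (-0.53). Of all genes, the block fits called 7.76%, 33.3%, 0.023% and 21.7% in the same order. No named gene changed direction. Of the named genes, 12 of 12 in LMX1B+/- stayed called in all alternatives run, 11 of 12 in LMX1B-/- against LMX1B+/- (all but Psmb5, with limma), and 0 of 10 in AMPK-/-.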
